A study of Mus musculus with 12 samples.

Results

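Polycomb repressive complex 1 (PRC1) was followed through 10 of its subunit genes, Ring1, Rnf2, Pcgf1, Pcgf2, Pcgf3, Pcgf5, Pcgf6, Cbx7, Kdm2b and Rybp. They were chosen by gene symbol as canonical and variant PRC1 subunits and make up 10 of the 24391 genes in the count table. RNA was sequenced from 4 female mouse embryonic stem cell (mESC) lines from a cross of C57BL/6J-129/SvJ with Mus musculus castaneus, all of which carry a Cre recombinase (CreERT) at 1 Rosa26 (Rs26) allele that 4-hydroxytamoxifen (OHT) activates. Lines 5.3 and 5.16 have the genotype Rif1+/+ Rs26+/CreERT and are called WT. Lines 15.10 and 16.9 have the genotype Rif1F/F Rs26+/CreERT, with both copies of Rif1 floxed. Every line was sequenced once per condition, and the 3 conditions were mESC before deletion with no OHT, mESC after 2 days of OHT, and OHT-treated cells differentiated for 2 days as embryoid bodies (EB). The Rif1F/F libraries are called F/F before OHT and KO after it, so the 12 libraries form 6 groups of 2. Titles of the F/F libraries carry the name KO in 1 place and WT in another, and the libraries were taken as undeleted because they had no OHT. The WT libraries received OHT in the same conditions as the KO libraries. RIF1 is a chromatin protein that sets replication timing and limits resection at DNA breaks. The mESC medium held serum, leukemia inhibitory factor, the MEK inhibitor PD0325901 and the GSK3 inhibitor CHIR99021. A genotype is represented by only 2 lines. The p-values rest on the spread between the 2 lines of a group, pooled over all 6 groups and moderated across genes. The same 4 lines recur in the 3 conditions, and the fit reported treats their libraries as independent. Within a condition the genotype cannot be told apart from anything else that sets 1 pair of lines off from the other.

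PRC1 places ubiquitin on histone H2A and compacts chromatin over silent developmental genes. Every PRC1 holds a catalytic RING protein, RING1 or RNF2 (RING1B), bound to 1 PCGF protein, and the PCGF protein sets the kind of complex. Canonical PRC1 holds PCGF2 or BMI1 with a CBX protein that reads the methyl mark left by PRC2. Variant PRC1 holds RYBP or its relative YAF2 in place of the CBX protein. Among the variants, PCGF1 works with KDM2B, whose zinc finger binds unmethylated CG dinucleotides, PCGF3 and PCGF5 spread H2A ubiquitination broadly, and PCGF6 works with MGA and L3MBTL2 at germline genes.

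Of the 10 members, 8 were found in the RefSeq promoter table (build GRCm38.p6), with 13 start sites among them. The 3 windows below hold the 250 bases before a start site of Cbx7, Kdm2b and Pcgf5, the members whose genotype difference in EB was largest, and for genes with several start sites the window with the most CG dinucleotides is shown. They are printed 5′ to 3′ on the gene's strand with every CG in capitals, the dinucleotide that the KDM2B zinc finger reads.
Cbx7, chr15:79932647-79932896, minus strand: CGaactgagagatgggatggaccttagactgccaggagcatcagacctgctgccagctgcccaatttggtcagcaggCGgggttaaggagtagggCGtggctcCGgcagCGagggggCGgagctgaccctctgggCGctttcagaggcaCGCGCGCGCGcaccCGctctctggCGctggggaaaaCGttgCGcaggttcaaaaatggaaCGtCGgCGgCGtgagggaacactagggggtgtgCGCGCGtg
Kdm2b, chr5:122900351-122900600, minus strand: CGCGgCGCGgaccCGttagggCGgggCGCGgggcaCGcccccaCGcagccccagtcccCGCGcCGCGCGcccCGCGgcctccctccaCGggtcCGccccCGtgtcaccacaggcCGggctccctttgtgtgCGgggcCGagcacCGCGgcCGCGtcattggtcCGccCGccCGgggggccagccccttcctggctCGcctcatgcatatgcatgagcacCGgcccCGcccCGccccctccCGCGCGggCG
Pcgf5, chr19:36409498-36409747, plus strand: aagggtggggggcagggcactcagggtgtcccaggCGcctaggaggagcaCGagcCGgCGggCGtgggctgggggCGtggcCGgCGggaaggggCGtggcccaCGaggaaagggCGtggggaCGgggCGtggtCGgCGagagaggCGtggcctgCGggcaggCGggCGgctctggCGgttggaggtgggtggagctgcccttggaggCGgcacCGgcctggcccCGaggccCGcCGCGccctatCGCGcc
The Kdm2b window held 38 CG dinucleotides, the Pcgf5 window 28 and the Cbx7 window 23, against a median of 6 over 32851 promoter windows of the same length. Windows with fewer CG made up 98.1%, 92.4% and 86.7% of all promoters, in that order. Among the 13 member windows, another Pcgf5 window held the fewest CG dinucleotides, 4, and the Pcgf2 window held 5. The other Kdm2b windows held 12 to 36, so the places of Kdm2b and Pcgf5 hold for their richest windows only. Both strands were searched for the E-box CACGTG and for the E2F motif TTCCCGC. The E-box was found in 1 of the 13 member windows, that of Pcgf2, and in 6.02% of all promoters. The E2F motif was also found in 1 of the 13, the Pcgf5 window printed here, and in 3.82% of all promoters. A match is a description of the letters and not a measured binding site.

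The libraries held between 28600870 and 64808897 counted reads. Every member passed the filter on low counts, with 142 to 306 reads of Pcgf1, the most thinly covered, per group of 2 libraries. Levels are CPM, read counts scaled to the normalised library size, and a log2 fold change is called where its adjusted p from edgeR is under 0.05. Rif1 itself ran at 1455 and 1605 CPM in WT mESC after OHT, at 702 and 662 CPM in KO mESC, at 1382 and 1342 CPM in WT EB and at 789 and 845 CPM in KO EB. Rif1 was already lower in F/F mESC before OHT, at 1172 CPM in both libraries against 1537 and 1752 CPM in WT. The labels do not say which exons are floxed, so reads from the rest of the gene may count toward the KO level. The first part of each library's description label is shared within a condition and differs between conditions, so whatever it stands for cannot be told apart from condition, while each genotype comparison lies within 1 value of it. The WT mESC library of line 5.3 after OHT stood apart by Lars2, a gene whose 0.869% of the reads there compares with 0.0147% to 0.14% in the other libraries, and results that change without it are given without it too. As bulk RNA was measured, fewer cells of a type and less RNA per cell cannot be told apart.

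The 8 pluripotency markers summed to 3445 to 4766 CPM in the 8 mESC libraries, as their label says. Markers of cell states moved with genotype in EB. A set of 5 formative epiblast markers, the genes of cells leaving the naive state, summed to between 1574 and 1588 CPM in WT EB and between 970 and 974 CPM in KO EB. The naive genes Nanog and Zfp42 stood at 162 and 159 CPM and at 127 and 122 CPM in KO EB, against 79.7 and 67.7 CPM and 53.0 and 50.2 CPM in WT EB. Over all 8 pluripotency markers, the summed level was 1924 to 2025 CPM in WT EB and 2084 to 2215 CPM in KO EB. Of the 8, 4 were called higher and 1 lower in KO EB, where 40.4% of all genes were called. The means of Dppa5a, Pou5f1 and Sox2 were lower in KO EB, at 233, 703 and 199 CPM against 288, 741 and 212 CPM in WT EB. The 6 markers of two-cell-like cells, a rare state that resembles the early embryo, summed to 6.47 to 8.31 CPM in WT EB and to 157 to 184 CPM in KO EB, with Tcstv3 at 0 in all EB libraries. The 5 trophoblast markers reached 35.6 to 35.8 CPM in WT EB and 68.9 to 70.8 CPM in KO EB, and the 6 primitive endoderm markers 45.7 to 48.8 and 37.2 to 40.2 CPM. In the trophoblast set 2 were called higher and 0 lower. Tfap2c led the sum (mean 44.0 CPM in KO EB, 16.3 in WT EB). Gata3 (5.13 against 0.351) already stood apart before OHT (7.54 in F/F against 0.0958). Eomes (20.2 against 18.4) and Cdx2 (0.416 against 0.47) moved little. In the primitive endoderm set 1 was called higher and 2 lower, and Lama1 led the sum (19.1 against 29.4). Means of Dab2, Sox17 and Pdgfra were higher in KO EB, and those of Gata4 and Gata6 lower. The 9 feeder fibroblast markers summed to 8.31 to 11.3 CPM in mESC and to 17.6 to 21.8 CPM in EB.

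Marker sums differed between genotypes in mESC after OHT as well. The formative markers summed to 211 to 214 CPM in WT and 150 to 156 CPM in KO, and the two-cell-like markers to 0.482 to 1.03 and 5.85 to 6.93 CPM. The primitive endoderm markers summed to 266 to 275 CPM in WT and 194 to 221 CPM in KO, most of it Lama1 (257 and 248 against 170 and 197 CPM). Of these 6 markers, 2 were called higher and 2 lower in KO, where 38.4% of all genes were called, and their median log2 fold change was 0.36. The means of Gata4, Gata6, Sox17 and Dab2 were higher in KO, and those of Lama1 and Pdgfra lower. Trophoblast markers were at 69.6 to 73.9 CPM in WT and 76.3 to 84.2 CPM in KO, and pluripotency markers at 4064 to 4235 and 4514 to 4766 CPM. Before OHT the formative markers summed to 141 to 153 CPM in WT and 117 to 125 CPM in F/F. The part of these states in the member differences between genotypes and between mESC and EB was not tested.

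Per kilobase of exon, Rnf2 and Pcgf6 led the members and Pcgf5, Pcgf1 and Ring1 came last. Over the 12 libraries the median level of Rnf2 was 38.3 CPM per kilobase, that of Pcgf6 20.4, of Cbx7 17.8, of Kdm2b 12.8, of Pcgf3 11.3, of Rybp 10.7 and of Pcgf2 9.94. Ring1 followed at 2.52 CPM per kilobase, Pcgf1 at 1.57 and Pcgf5 at 1.43. The ranges of neighbours in this order overlapped in every case except Pcgf2 and Ring1, where Pcgf2 ran from 6.23 to 14.1 and Ring1 from 1.72 to 3.05 CPM per kilobase. Rnf2 ranked first in the 10 libraries other than WT EB, and Cbx7 ranked first in both WT EB libraries. Ring1 ranked eighth in all 12.

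**Figure D1:**
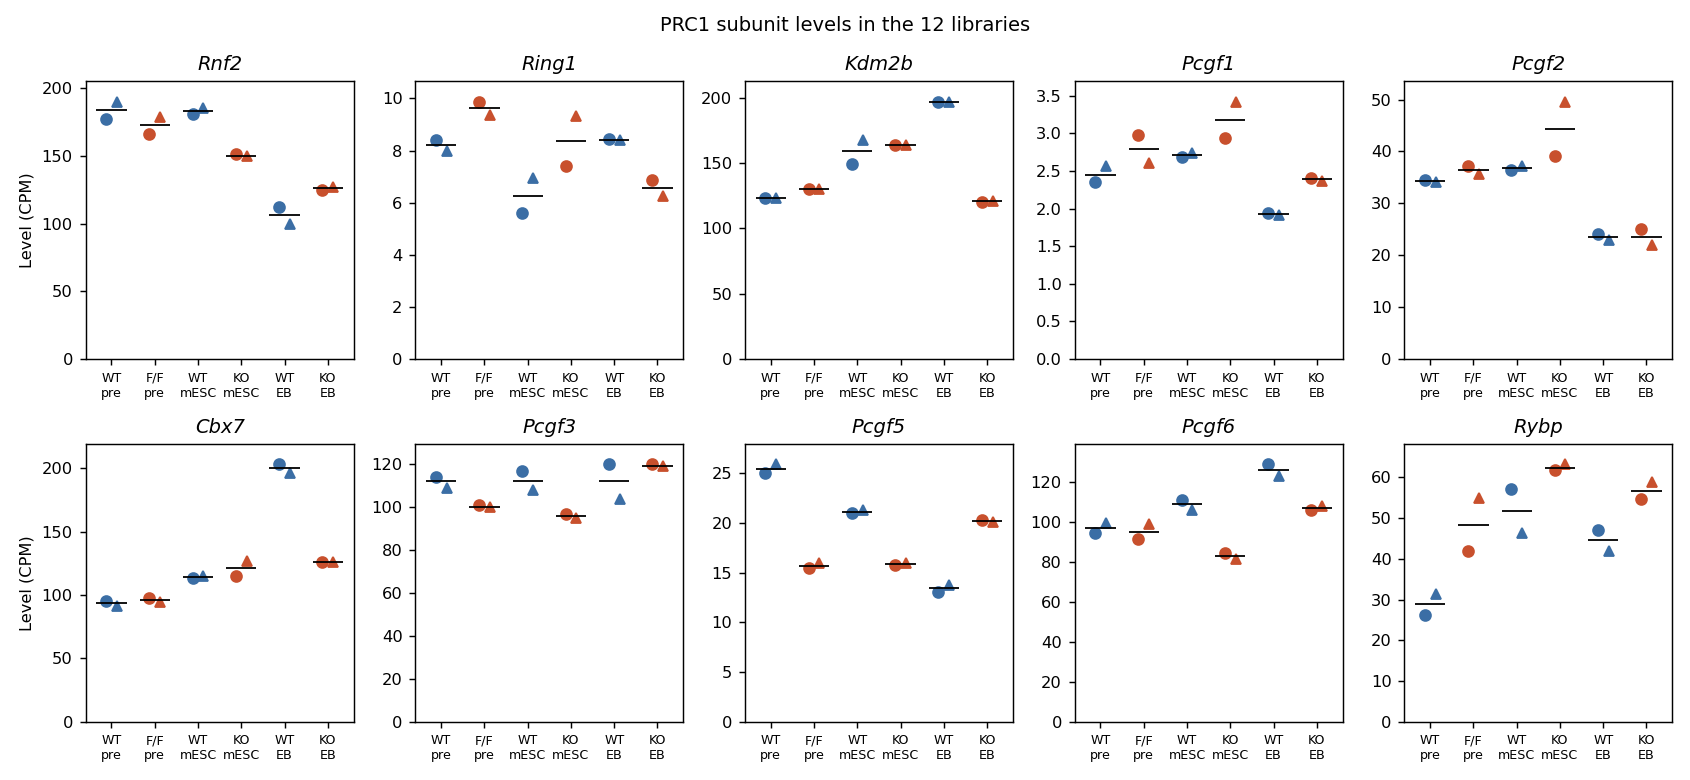
Level in CPM (vertical axes, from 0) of each of the 10 PRC1 subunit genes in the 12 libraries, by group; blue marks WT, orange F/F or KO, circles the first and triangles the second line of a group, and bars the group mean. Cbx7 and Kdm2b stand highest in WT EB, at 203 and 196 CPM and at 197 CPM in both libraries, and Pcgf5 reverses its order of genotypes between mESC and EB.

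The catalytic subunits shifted their balance with differentiation, and differently in the 2 genotypes. RNF2 is the main H2A ubiquitin ligase of mESC. In mESC after OHT, Rnf2 stood at 181 and 185 CPM in the WT libraries and at 151 and 150 CPM in the KO libraries. In EB it stood at 112 and 100 CPM in WT and at 125 and 127 CPM in KO. The KO libraries therefore lay below the WT libraries in mESC and above them in EB, with no overlap in either condition. Rnf2 was lower in KO mESC than in WT mESC by a log2 fold change of -0.29 ± 0.07 (SE, adjusted p = 0.00329) and higher in KO EB by 0.25 ± 0.07 (adjusted p = 0.00767). From mESC to EB, Rnf2 fell by 0.79 on the log2 scale in WT (SE 0.07, adjusted p = 2.2e-08) and by 0.25 in KO (SE 0.07, adjusted p = 0.00469). The genotype effect in EB exceeded that in mESC by 0.54 ± 0.10 (adjusted p = 6.1e-04). Before OHT, Rnf2 was at 177 and 190 CPM in WT and at 166 and 179 CPM in F/F, where the ranges overlapped. The interval for the difference before OHT ran from -0.23 to 0.05 on the log2 scale (95%), and it was not called. The EB difference lost its call without the WT EB library of line 5.16 (0.18, adjusted p = 0.104) or the KO EB library of line 16.9 (0.24, adjusted p = 0.0587).

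RING1, the second RING ligase, was the minor of the pair. Its level was 8.41 and 7.98 CPM in WT before OHT, 9.88 and 9.36 CPM in F/F before OHT, 5.59 and 6.94 CPM in WT mESC after OHT, 7.41 and 9.31 CPM in KO mESC, 8.46 and 8.39 CPM in WT EB, and 6.89 and 6.25 CPM in KO EB. KO stood above WT in mESC and below WT in EB, the reverse of the order of Rnf2. Ring1 was higher in KO mESC than in WT mESC by 0.42 ± 0.14 (adjusted p = 0.028), and its difference in EB of -0.36 ± 0.15 missed the threshold (adjusted p = 0.0627). With only the groups compared, the EB difference was called (-0.34, adjusted p = 0.0313) and the mESC difference was not (0.43, adjusted p = 0.0796). The difference between these genotype effects was -0.78 ± 0.21 (adjusted p = 0.00926). Ring1 rose from mESC to EB in WT by 0.43 ± 0.14 (adjusted p = 0.0141), whereas the KO difference was -0.35 ± 0.15 (adjusted p = 0.0538). The call in WT was lost without the WT mESC library of line 5.3 (0.25). It was also lost without the WT EB library of line 5.3 (0.39) or the other WT EB library (0.41). A fit of just the WT EB and WT mESC groups lost it too (0.4, adjusted p = 0.0513). The KO difference was called with only the groups compared (-0.38, adjusted p = 0.0121), with no filter on low counts (-0.36, adjusted p = 0.0412) and without the KO mESC library of line 15.10 (-0.50, adjusted p = 0.0235), and was -0.17 (adjusted p = 0.45) without that of line 16.9. Per kilobase, Ring1 made up 3.77% to 4.56% of the Ring1 and Rnf2 sum in WT mESC after OHT and 8.76% to 9.64% in WT EB. In KO it made up 5.89% to 7.32% in mESC and 5.87% to 6.54% in EB, ranges that overlap. Before OHT, Ring1 made up 5.08% to 5.7% in WT and 6.22% to 7.05% in F/F. WT mESC after OHT thus had the lowest Ring1 share of the 6 groups, and its 3.77% came from the library of line 5.3. The Ring1 call in mESC was lost without the WT library of line 5.3 (0.29, adjusted p = 0.197) or the KO library of line 16.9 (0.24, adjusted p = 0.338), and the difference between genotype effects was lost without the latter (-0.60, adjusted p = 0.0731).

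Cbx7 rose in EB of the WT lines, and the change in the KO lines did not pass the test. CBX7 is the main chromodomain subunit of canonical PRC1 in mESC. Cbx7 was at 95.4 and 91.1 CPM in WT and 97.3 and 94.2 CPM in F/F before OHT, at 113 and 115 CPM in WT and 115 and 127 CPM in KO mESC after OHT, and at 203 and 196 CPM in WT EB and 126 CPM in both KO EB libraries. In EB the lines separated by genotype with a wide gap, while in both mESC conditions the genotypes overlapped. Cbx7 rose from mESC to EB in WT by 0.80 ± 0.06 (1.74-fold, adjusted p = 6.8e-09). In KO the same step gave 0.05 ± 0.06, with an interval of -0.09 to 0.19. KO EB was lower than WT EB by -0.67 ± 0.06 (0.629-fold, adjusted p = 3.0e-07). The genotype effect in EB differed from that in mESC after OHT by -0.75 ± 0.09 (adjusted p = 1.4e-05) and from that before OHT by -0.71 ± 0.09 (adjusted p = 1.7e-05).

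Pcgf2, the canonical PCGF subunit of mESC (MEL18), fell in EB of both genotypes. It stood at 36.5 and 37.2 CPM in WT mESC and 39.2 and 49.6 CPM in KO mESC after OHT, and at 24.0 and 23.0 CPM in WT EB and 25.1 and 22.0 CPM in KO EB. All 4 EB libraries lay below all mESC libraries, and the genotypes overlapped in EB. Pcgf2 fell by 0.65 on the log2 scale in WT (SE 0.10, adjusted p = 2.0e-05) and by 0.91 in KO (SE 0.10, adjusted p = 5.3e-07). In EB the genotype difference was 0.01 ± 0.10 (interval -0.21 to 0.22). The difference in mESC after OHT was 0.27 ± 0.10 (adjusted p = 0.0357). It fell to 0.09 without the KO library of line 16.9, the highest of the 12, and rose to 0.43 without that of line 15.10. The call was lost in the former case, and also without either WT mESC library, where the value was 0.28 each time. A fit of just the WT and KO mESC groups lost it as well (0.28, adjusted p = 0.0772). Before OHT, Pcgf2 was at 34.5 and 34.2 CPM in WT and 37.1 and 35.7 CPM in F/F, and the difference of 0.08 ± 0.10 was not called.

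Kdm2b moved in opposite directions in the 2 genotypes. KDM2B is a histone demethylase that brings the PCGF1 complex to CpG islands. Kdm2b was at 123 CPM in both WT and 130 CPM in both F/F libraries before OHT. After OHT it was at 149 and 168 CPM in WT mESC and 164 CPM in both KO mESC libraries. In EB it was at 197 CPM in both WT libraries and at 120 and 121 CPM in KO. The WT EB libraries were the highest of the 12 and the KO EB libraries the lowest. From mESC to EB, Kdm2b rose in WT by 0.31 ± 0.06 (adjusted p = 4.0e-04; 0.20 without the WT mESC library of line 5.3, adjusted p = 0.022) and fell in KO by 0.44 (SE 0.06, adjusted p = 1.5e-05). KO EB was lower than WT EB by -0.70 ± 0.06 (0.614-fold, adjusted p = 1.7e-07), while the mESC difference after OHT was 0.05 ± 0.06 (interval -0.09 to 0.19). The genotype effect differed between EB and mESC after OHT by -0.75 ± 0.09 (adjusted p = 1.4e-05). In the annotation, 8.74% of Kdm2b exon bases are overlapped by other genes, mostly by Rnf34 on the opposite strand, and whether reads were counted by strand is not known here, so part of these reads may be Rnf34's.

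Pcgf1, the PCGF partner of KDM2B, did not pass the test between genotypes in any condition. It was the member with the fewest reads, at 1.94 and 1.91 CPM in WT EB, 2.40 and 2.37 CPM in KO EB, 2.69 and 2.74 CPM in WT mESC after OHT and 2.94 and 3.42 CPM in KO mESC. Both KO EB libraries lay above both WT EB libraries. The EB difference of 0.31 ± 0.20 had an interval of -0.11 to 0.73 (adjusted p = 0.23), so a difference of that size could not be told from 0 at this depth. The change from WT mESC to WT EB of -0.49 ± 0.19 (adjusted p = 0.0288) was called, and lost the call without any 1 of the 4 libraries and with DESeq2 (-0.50, adjusted p = 0.0806). Of the 50-base words in Pcgf1 exons, 15.3% also occur in another gene, mostly Gm8930, so its level is uncertain.

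Pcgf5 changed the sign of its genotype difference between mESC and EB. PCGF3 and PCGF5 form closely related complexes that lay down H2A ubiquitin widely and start Polycomb recruitment in X inactivation. Pcgf5 was at 25.0 and 25.9 CPM in WT and 15.5 and 16.0 CPM in F/F before OHT, and at 21.0 and 21.3 CPM in WT and 15.8 and 16.0 CPM in KO mESC after OHT. In EB it was at 13.1 and 13.8 CPM in WT and at 20.3 and 20.1 CPM in KO. The genotypes did not overlap in any condition, with WT higher in both mESC conditions and KO higher in EB. The difference was -0.69 ± 0.09 before OHT (adjusted p = 8.0e-06), -0.41 ± 0.09 in mESC after OHT (adjusted p = 0.00143) and 0.59 ± 0.09 in EB (adjusted p = 5.3e-05). From mESC to EB, Pcgf5 fell by 0.65 on the log2 scale in WT (SE 0.09, adjusted p = 5.1e-06) and rose by 0.35 ± 0.09 in KO (adjusted p = 0.00301). The genotype effect in EB exceeded that in mESC after OHT by 0.99 ± 0.13 (adjusted p = 2.0e-05) and that before OHT by 1.28 ± 0.12 (adjusted p = 7.1e-07). WT was thus already above F/F in mESC before any OHT.

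Pcgf3 held a narrow range, from 95.1 to 120 CPM over the 12 libraries. It stood at 117 and 108 CPM in WT and 96.9 and 95.1 CPM in KO mESC after OHT, a difference of -0.23 ± 0.07 (adjusted p = 0.0203). The EB difference was 0.09 ± 0.07 (interval -0.06 to 0.24), with 120 and 104 CPM in WT and 120 and 119 CPM in KO. Pcgf3 rose from mESC to EB in KO by 0.31 ± 0.07 (adjusted p = 0.00129), while the WT step was 0.997-fold (adjusted p = 0.968). The difference of the genotype effects between EB and mESC, 0.32 ± 0.10 (adjusted p = 0.0274), lost its call without any 1 of 6 of the 8 libraries it rests on, with values of 0.21 to 0.33. The mESC call was lost without the WT library of line 5.3 (-0.15, adjusted p = 0.21) and without either KO library (-0.24, adjusted p = 0.07, and -0.21, adjusted p = 0.117). Per kilobase, Pcgf3 exceeded Pcgf5 by 9.96 to 12.1 times in WT EB and by 7.79 to 7.82 times in KO EB.

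Pcgf6 was lower in KO than in WT after OHT, in mESC and in EB, and did not differ detectably before OHT. PCGF6 is the subunit of the PRC1 variant that keeps germline genes silent in mESC. It was at 94.8 and 99.7 CPM in WT and 91.4 and 98.9 CPM in F/F before OHT, at 111 and 106 CPM in WT and 84.4 and 81.4 CPM in KO mESC after OHT, and at 129 and 123 CPM in WT EB and 106 and 108 CPM in KO EB. Before OHT the genotypes overlapped, and after OHT both KO libraries lay below both WT libraries in each condition. The difference was -0.03 ± 0.07 before OHT (interval -0.17 to 0.11), -0.39 ± 0.07 in mESC after OHT (adjusted p = 1.7e-04) and -0.24 ± 0.07 in EB (adjusted p = 0.00786). The genotype effect in mESC after OHT differed from that before OHT by -0.36 ± 0.09 (adjusted p = 0.0256), the 1 member that passed this test in the fit reported. That test lost its call without any 1 of 5 of the 8 libraries it rests on, with values from -0.39 to -0.30, and when only the 4 groups compared were fitted (-0.36, adjusted p = 0.0594). Pcgf6 rose from mESC to EB in WT by 0.21 ± 0.06 (adjusted p = 0.00851), a call lost without the WT EB library of line 5.3 (0.15, adjusted p = 0.121), and in KO by 0.37 ± 0.07 (adjusted p = 1.3e-04). The EB difference lost its call without the WT library of line 5.3 (-0.19, adjusted p = 0.0889) or the KO library of line 15.10 (-0.22, adjusted p = 0.0763).

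Rybp had the widest range of group means among the members, 1.12 on the log2 scale. RYBP takes the place of CBX proteins in variant PRC1 and stimulates its ubiquitin ligase. Rybp was at 26.3 and 31.3 CPM in WT and 41.9 and 54.9 CPM in F/F before OHT. After OHT it was at 57.2 and 46.3 CPM in WT and 61.7 and 63.2 CPM in KO mESC, and in EB at 47.0 and 41.9 CPM in WT and 54.7 and 58.8 CPM in KO. The WT libraries before OHT were the lowest of the 12, and the F/F or KO libraries lay above the WT libraries in each condition. The genotype difference was 0.75 ± 0.12 before OHT (1.68-fold, adjusted p = 1.2e-04), 0.27 ± 0.12 in mESC after OHT (adjusted p = 0.0817) and 0.35 ± 0.12 in EB (adjusted p = 0.027). The mESC difference after OHT was called with no filter on low counts (adjusted p = 0.0131), with only the groups compared (adjusted p = 0.0485) and without the WT library of line 5.3 (0.45, adjusted p = 0.0122), and was 0.13 (adjusted p = 0.447) without that of line 5.16. The EB call was lost without 3 of the 4 libraries, with adjusted p of 0.0566 to 0.18. The differences between these genotype effects were not called, with -0.48 ± 0.17 (adjusted p = 0.0921) for mESC after OHT against before and -0.40 ± 0.17 (adjusted p = 0.0892) for EB against before. Both were called with no filter on low counts (adjusted p = 0.00296 and 0.00962) and without the F/F library of line 15.10 (-0.66, adjusted p = 0.0209, and -0.58, adjusted p = 0.0147), and the first also without the WT mESC library of line 5.16 (-0.62, adjusted p = 0.015). Without the F/F library of line 16.9 they were -0.27 and -0.19 (adjusted p = 0.38 and 0.429). Of the 50-base words in Rybp exons, 8.93% also occur in another gene, mostly in the pseudogene Rybp-ps. The 3 genes most like Rybp over the 12 libraries, by Pearson correlation of log2 CPM, were Elp4 (r = 0.975), Bccip (r = 0.966) and Shcbp1 (r = 0.962), a description over libraries that share lines and conditions. Bccip was at 46.1 and 48.8 CPM in WT before OHT and between 64.0 and 85.8 CPM in the other 10 libraries.

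**Figure D2:**
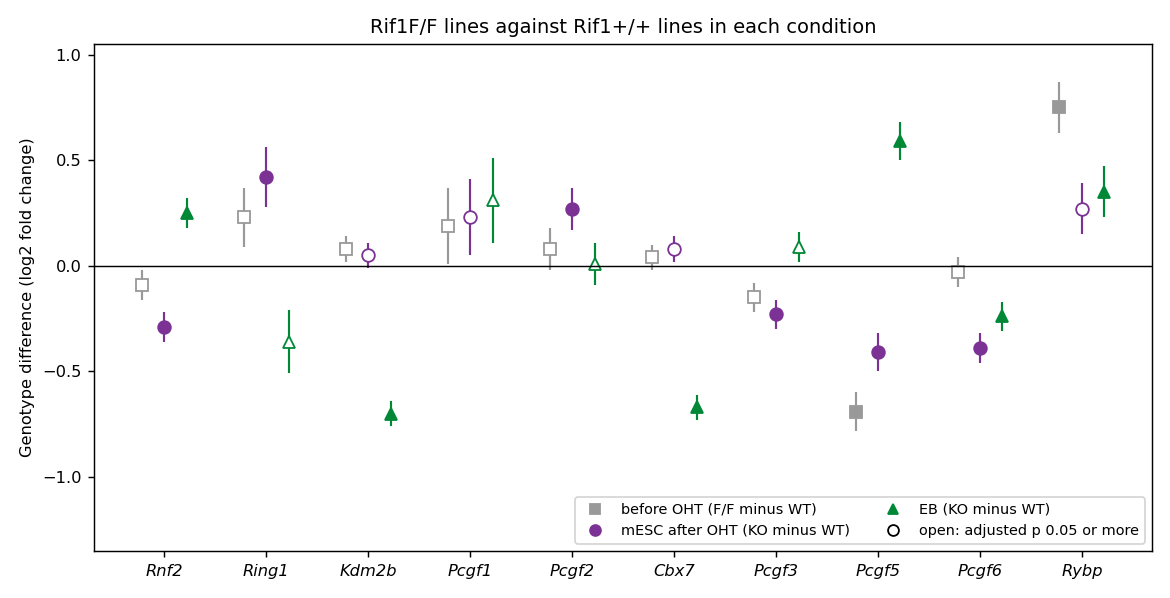
Log2 fold change of F/F or KO over WT (vertical axis) for each PRC1 subunit before OHT (grey squares), in mESC after OHT (purple circles) and in EB (green triangles), with SE as bars; filled symbols have adjusted p under 0.05. Kdm2b (-0.70) and Cbx7 (-0.67) stand away from 0 in EB alone of the 3 conditions, and Pcgf5 lies at -0.69 and -0.41 in mESC and at 0.59 in EB.

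The members were called in both directions between genotypes, and so was a large share of all genes. In EB, 3 members were higher in KO (Pcgf5, Rybp, Rnf2) and 3 lower (Kdm2b, Cbx7, Pcgf6), so 6 of 10 were called where 40.4% of all 17115 genes tested were called. In mESC after OHT, 2 were higher (Ring1, Pcgf2) and 4 lower (Pcgf5, Pcgf6, Rnf2, Pcgf3), again 6 of 10, where 38.4% of all genes were called. Without the WT mESC library of line 5.3, 4 of 10 were called. Before OHT, 1 was higher (Rybp) and 1 lower (Pcgf5), 2 of 10 where 37.4% of all genes were called. With so few members these shares are a description, and the median member log2 fold change was 0.05, 0.07 and 0.06 in EB, mESC and before OHT, beside medians over all genes of -0.017, -0.003 and -0.002. The 3 comparisons use separate libraries but the same 4 lines.

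The step from mESC to EB moved most members in WT. Of the 10, Cbx7, Ring1, Kdm2b and Pcgf6 rose and Rnf2, Pcgf2, Pcgf5 and Pcgf1 fell in WT, 8 of 10 where 62.3% of all genes were called. In KO, Pcgf6, Pcgf5 and Pcgf3 rose and Pcgf2, Kdm2b and Rnf2 fell, 6 of 10 where 59.0% of all genes were called. With only the KO EB and KO mESC groups fitted, Ring1 (-0.38), Pcgf1 (-0.46) and Rybp (-0.18) gained calls in KO. The share of all genes called in that fit is not given here. Rnf2, Pcgf2 and Pcgf6 were called in the same direction in both genotypes in the fit of all groups, while Kdm2b and Pcgf5 were called in opposite directions. Testing the difference itself, the genotype effect differed between EB and mESC after OHT for 6 of 10 members, higher for Pcgf5, Rnf2 and Pcgf3 and lower for Ring1, Cbx7 and Kdm2b, where 28.6% of all genes were called. Without the KO mESC library of line 16.9, 4 were called, and without the WT mESC library of line 5.3, 5. Between EB and the state before OHT it differed for 5 of 10, where 31.2% of all genes were called: Pcgf5 (1.28) and Rnf2 (0.34) higher, and Kdm2b (-0.78), Cbx7 (-0.71) and Ring1 (-0.59) lower. The last of these, Ring1, lost its call without any 1 of the 8 libraries and with DESeq2 (-0.57, adjusted p = 0.0589), and Rnf2 lost it without the EB libraries of lines 5.16 or 16.9 or the WT library of line 5.16 before OHT (0.27 to 0.33). These interaction tests share the EB libraries.

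**Figure D3:**
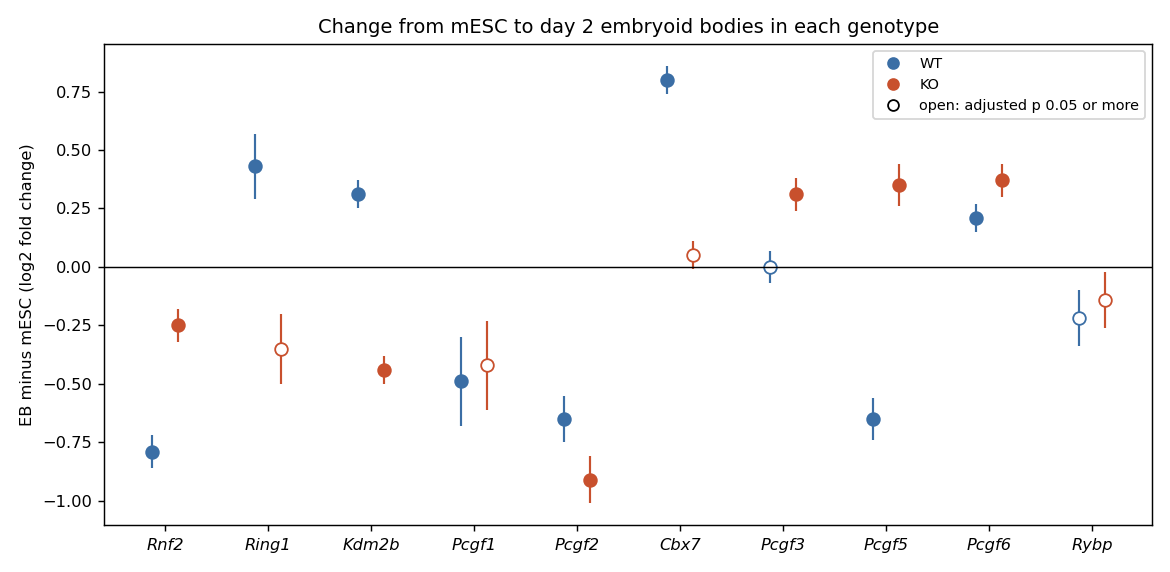
Log2 fold change from mESC after OHT to EB (vertical axis) of each PRC1 subunit in WT (blue) and KO (orange), with SE as bars; open symbols have adjusted p of 0.05 or more. Kdm2b (0.31 in WT, -0.44 in KO) and Pcgf5 (-0.65 in WT, 0.35 in KO) lie on opposite sides of 0, and Cbx7 (0.80) rose in WT with 0.05 in KO.

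In the WT lines OHT activates Cre with no floxed Rif1 to remove, and the libraries before and after OHT also differ in the first part of the description label, which cannot be told apart from OHT. From before to after OHT, Rybp (0.85 ± 0.12, adjusted p = 3.4e-05), Kdm2b (0.37 ± 0.06, adjusted p = 2.1e-04), Cbx7 (0.29 ± 0.06, adjusted p = 0.00131) and Pcgf6 (0.16 ± 0.07, adjusted p = 0.0494) rose in WT. Ring1 fell by 0.39 (SE 0.14, adjusted p = 0.0303) and Pcgf5 by 0.27 (SE 0.08, adjusted p = 0.0144), giving 6 of 10 where 49.1% of all genes were called. Without the WT mESC library of line 5.3, or the WT library of line 5.16 before OHT, 3 were called, and Ring1, Pcgf5 and Pcgf6 lost their calls. In the replicate block fit, in which each line is paired with itself, Pcgf6 (0.16, adjusted p = 0.0755) lost its call. In the Rif1F/F lines the same step raised Rybp (0.37 ± 0.12, adjusted p = 0.0199), Kdm2b (0.34 ± 0.06, adjusted p = 5.2e-04), Cbx7 (0.34 ± 0.06, adjusted p = 5.1e-04) and Pcgf2 (0.29 ± 0.10, adjusted p = 0.0243). Rnf2 and Pcgf6 both fell by 0.20 (SE 0.07, adjusted p = 0.0263 and 0.0218), 6 of 10 where 43.7% of all genes were called. Leaving out 1 library at a time left 2 to 4 of these 6 calls, with 0.11 for Pcgf2 (adjusted p = 0.454) without the KO library of line 16.9 and 0.19 for Rybp (adjusted p = 0.283) without the F/F library of line 15.10, and the calls of Cbx7 and Kdm2b were lost in none of the alternatives run. Between mESC after and before OHT, the genotype effect was called different for Pcgf6, 1 of 10 where 7.86% of all genes were called, and for Rybp under the 3 alternatives given with its values.

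Among the other core PRC1 subunits, Bmi1 and Phc2 were higher in KO EB. BMI1 (PCGF4) replaces PCGF2 in canonical PRC1, and the PHC proteins join PRC1 into larger bodies. Bmi1 was at 10.6 and 9.10 CPM in WT EB and 20.4 and 19.9 CPM in KO EB (1.04 ± 0.12, adjusted p = 2.5e-06). It was already higher in F/F before OHT (0.43 ± 0.12, adjusted p = 0.00744) and in KO mESC after OHT (0.41 ± 0.12, adjusted p = 0.0102). Phc2 was at 24.2 and 24.1 CPM in WT EB and 47.0 and 48.5 CPM in KO EB (0.98 ± 0.10, adjusted p = 7.9e-07). Before OHT, Phc2 was lower in F/F (-0.43 ± 0.10, adjusted p = 0.00336), and the mESC difference after OHT was -0.01 ± 0.10 (adjusted p = 0.958). Phc1 rose from mESC to EB in both genotypes, by 1.13 ± 0.07 in WT (adjusted p = 1.1e-10) and 0.91 ± 0.07 in KO (adjusted p = 2.3e-09). Of the 11 genes of this list, 2 were higher and 3 lower in KO EB, 5 higher and 2 lower in KO mESC after OHT, and 3 higher and 3 lower in F/F before OHT, beside 40.4%, 38.4% and 37.4% of all genes called, and with median log2 fold changes of -0.04, -0.01 and 0.12. Scml2 stood out before OHT, at 194 CPM in both WT libraries and 40.9 and 25.4 CPM in F/F (-2.55 ± 0.16, adjusted p = 1.7e-09), and in EB the genotypes overlapped at 97.7 and 113 CPM in WT and 112 and 100 CPM in KO.

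The partners that variant PRC1 gathers were called at 5 higher and 3 lower of 21 in KO EB, where 40.4% of all genes were called. Hdac2, a histone deacetylase of the PCGF6 complex, was at 138 and 128 CPM in WT EB and 205 and 207 CPM in KO EB (0.63 ± 0.08, adjusted p = 3.9e-06). Mga, the DNA-binding subunit that pairs with PCGF6, was at 724 and 701 CPM in WT EB and 498 and 524 CPM in KO EB (-0.48 ± 0.07, adjusted p = 6.2e-05). In both genotypes L3mbtl2, another PCGF6 partner, rose from mESC to EB, by 1.01 ± 0.07 in WT (adjusted p = 1.3e-09) and 0.99 ± 0.07 in KO (adjusted p = 2.0e-09). In mESC after OHT, 4 of the 21 were higher and 8 lower in KO, and before OHT 2 were higher and 4 lower in F/F, beside 38.4% and 37.4% of all genes. Bcorl1, a relative of the PCGF1 partner BCOR, was at 46.1 and 48.1 CPM in WT and 29.3 and 30.8 CPM in KO mESC (-0.65 ± 0.09, adjusted p = 2.3e-05), and the same -0.65 ± 0.09 was found before OHT (adjusted p = 2.1e-05). In EB, Bcorl1 was higher in KO, at 32.1 and 29.1 CPM against 22.1 and 23.0 CPM in WT (0.44 ± 0.09, adjusted p = 9.4e-04). The list's medians were -0.02 in EB, -0.08 in mESC after OHT and -0.03 before OHT.

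PRC2 writes the histone methyl mark that CBX7 reads. Phf19, a PRC2 accessory subunit, was lower in the Rif1F/F lines in each condition, at 48.0 and 50.6 CPM in WT EB and 8.17 and 8.55 CPM in KO EB (-2.56 ± 0.17, adjusted p = 2.8e-09). Before OHT it was at 55.2 and 50.2 CPM in WT and 15.2 and 9.02 CPM in F/F (-2.12 ± 0.16, adjusted p = 2.1e-08). Suz12, a core PRC2 subunit, fell from mESC to EB by 0.84 on the log2 scale in WT (SE 0.07, adjusted p = 5.6e-09) and by 0.74 in KO (SE 0.07, adjusted p = 3.4e-08). Of 13 PRC2 subunits, 2 were higher and 2 lower in KO EB, 3 higher and 5 lower in KO mESC after OHT, and 4 higher and 3 lower in F/F before OHT, beside 40.4%, 38.4% and 37.4% of all genes called, and with medians of 0.06, -0.08 and 0.01. Among 7 genes for the removal of ubiquitin from H2A, which is the reverse of the PRC1 reaction, 1 was higher and 1 lower in KO EB, where 40.4% of all genes were called. The lower one, Asxl3, a partner of the deubiquitinase BAP1, was at 6.73 and 6.87 CPM in WT EB and 2.83 and 3.12 CPM in KO EB (-1.20 ± 0.17, adjusted p = 2.3e-05), and it was already lower before OHT (-2.06 ± 0.21, adjusted p = 8.0e-07). The higher one, Asxl1 (0.17 ± 0.07, adjusted p = 0.0464), lost its call without any 1 of the 4 EB libraries and with no filter on low counts.

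Germline genes listed as targets of the PCGF6 complex were mostly lower in the Rif1F/F lines, before OHT as well as after. Their repression by PRC1 was not measured here. Of the 16 listed germline genes, 14 were lower and none higher in F/F before OHT, 12 lower and none higher in KO mESC after OHT, and 9 lower and 5 higher in KO EB, beside 37.4%, 38.4% and 40.4% of all genes called in either direction. At an unadjusted p under 0.05 the count of higher germline genes in both mESC comparisons was also 0, with edgeR and with DESeq2. The medians were -1.61, -0.75 and -0.51 on the log2 scale, beside medians over all genes of -0.002, -0.003 and -0.017. From before to after OHT, 10 of the 16 rose and 3 fell in the Rif1F/F lines (median 0.65), beside 43.7% of all genes called. In WT, 1 rose and 7 fell (median -0.16), beside 49.1%. The genotype effect in mESC after OHT was higher than before OHT for 11 and lower for 2 (median 0.85), beside 7.86%. In EB it was higher than before OHT for 13 and lower for 3 (median 1.63), beside 31.2%. Dazl, a germ cell RNA-binding protein, was at 642 and 682 CPM in WT and 97.0 and 84.9 CPM in F/F before OHT, at 608 and 687 CPM in WT and 308 and 268 CPM in KO mESC after OHT, and at 86.5 and 81.7 CPM in WT EB and 273 and 270 CPM in KO EB. Its order of genotypes turned between mESC and EB, with a log2 fold change of -2.86 ± 0.09 before OHT (adjusted p = 2.1e-13) and 1.69 ± 0.09 in EB (adjusted p = 9.3e-11). Taf7l, a germ cell transcription factor subunit, was at 36.3 and 32.2 CPM in WT and 2.86 and 2.10 CPM in F/F before OHT (-3.79 ± 0.14, adjusted p = 3.0e-12). Zcwpw1, a meiotic reader of histone methylation, was at 31.7 and 37.8 CPM in WT EB and 5.10 and 5.39 CPM in KO EB (-2.73 ± 0.16, adjusted p = 4.4e-10).

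Of 24 developmental transcription factor and signal genes listed as Polycomb targets, 22 could be tested, and Neurog1 and Wnt1 fell below the filter. In KO EB 1 was higher and 3 lower, in KO mESC after OHT 3 were higher and 6 lower, and in F/F before OHT 1 was higher and 7 lower, beside 40.4%, 38.4% and 37.4% of all genes called, and with medians of 0.07, 0.04 and -0.50. Olig2, a neural transcription factor, was at 20.1 and 20.2 CPM in WT and at 0 and 0.0241 CPM in F/F before OHT, and at 6.06 and 6.89 CPM in WT EB and 0.0534 and 0.172 CPM in KO EB. T (brachyury), a mesoderm transcription factor, was at 8.84 and 8.46 CPM in WT and 0.929 and 1.01 CPM in F/F before OHT (-3.15 ± 0.20, adjusted p = 2.4e-09). These lists were chosen with earlier results of these data known, and nothing particular to them is claimed from their counts.

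**Figure D4:**
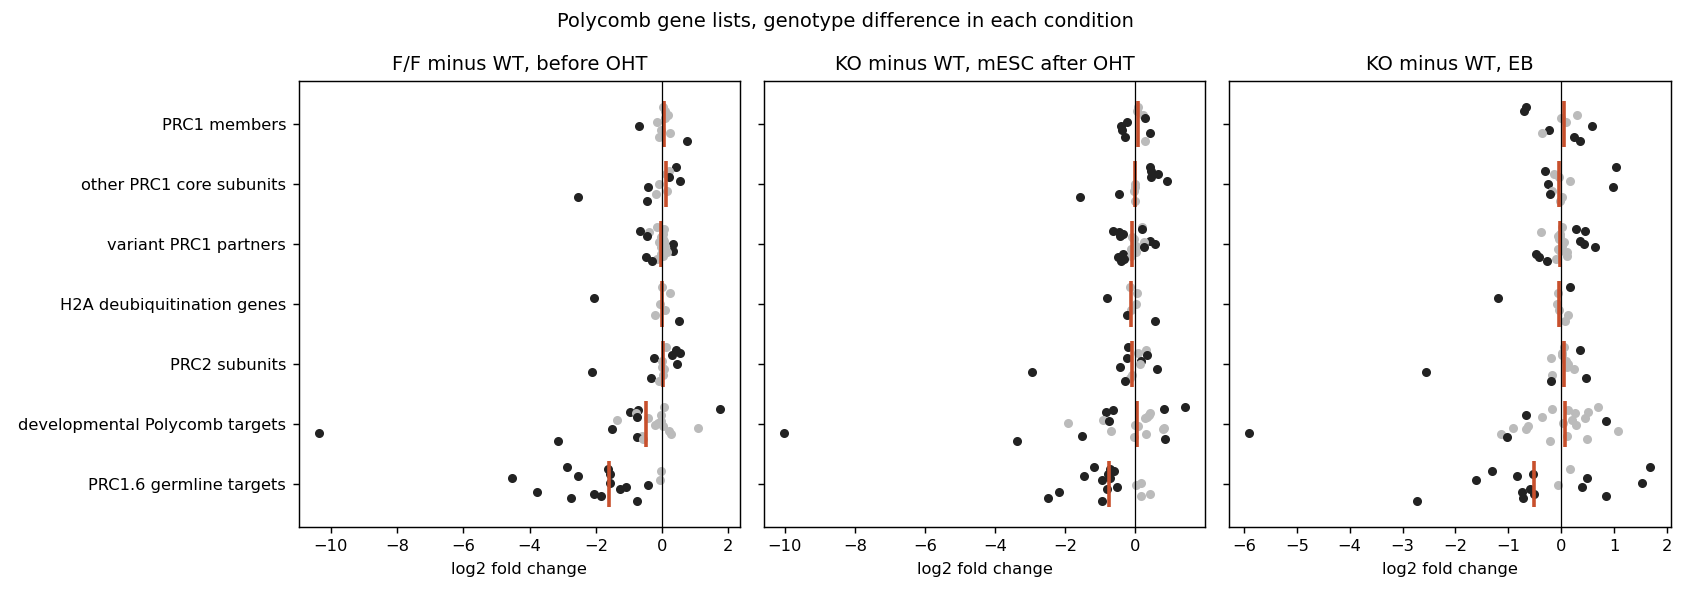
Log2 fold change of F/F or KO over WT (horizontal axes, which differ in range) for each tested gene of 7 Polycomb lists before OHT, in mESC after OHT and in EB; black points have adjusted p under 0.05, grey points do not, and orange bars are the list medians. The PRC1 members lie within 0.75 of 0 in all 3 panels, and the germline list has medians of -1.61, -0.75 and -0.51.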

How the data were processed

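RNA was measured in 12 libraries (6 groups of 2). The table the authors deposited holds raw counts of reads for each gene symbol, per the file headers. The submitters' processing notes name BWA, HTSeq, DESeq2 and mm9, and no source used here gives the strand setting. Counts were tested with edgeR 4.0.16 (R 4.3.3): quasi-likelihood F test, 1 model of the 6 groups, TMM, filterByExpr (17115 genes kept), Benjamini-Hochberg over all genes at 0.05. The common biological coefficient of variation was 0.0717. On simulated data for KO against WT in EB (17115 genes), edgeR recovered 47 of 50 and 50 of 50 genes changed by -1 and 1 on the log2 scale, 36 and 37 of 50 at -0.5 and 0.5, with 9 false calls. Levels are CPM, and levels per kilobase use exon lengths of GRCm38. Alternatives were RLE size factors, no low-count filter, only the groups compared, DESeq2 1.42.0, a replicate block by line, and leaving out each library. Same-numbered libraries are the same line and so pair across conditions by design, although their deviations correlated at only -0.066 to 0.091 across genes. Named were all members, Rif1, up to 2 genes per list with the smallest adjusted p in each genotype and EB comparison, and the 3 genes most like the widest-ranging member. Other named list values and markers were chosen after their values were seen. Members and lists were chosen with earlier results of these data known. 1 gene that the rule named is not reported here.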

Additional observations from a re-analysis of the deposited data

Results flagged for a closer look

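For 6 of 10 members the genotype effect in EB differed from that in mESC after OHT, by edgeR's test of the difference itself, where 28.6% of all genes were called. Pcgf5 (0.99 on the log2 scale), Rnf2 (0.54) and Pcgf3 (0.32) moved toward KO in EB, and Ring1 (-0.78), Cbx7 (-0.75) and Kdm2b (-0.75) moved toward WT. Pcgf3 lost this call in most fits with 1 library left out, and Ring1 lost it without the KO mESC library of line 16.9. Against the state before OHT, the EB effect differed for Pcgf5 (1.28), Rnf2 (0.34), Kdm2b (-0.78), Cbx7 (-0.71) and Ring1 (-0.59), where 31.2% of all genes were called. Ring1 lost that call whichever library was left out and with DESeq2, and Rnf2 lost it in some of the fits with 1 library left out. Between mESC after and before OHT, Pcgf6 (-0.36) was the 1 member whose genotype effect differed in the fit reported, where 7.86% of all genes were called. Pcgf6 lost this call in 6 alternatives, and Rybp gained it in 3 (-0.66 to -0.49).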

How the results depend on the processing

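No member called in the fit reported changed direction under any alternative run, and 31 of 52 called member results kept their call under all of them, among them the EB differences of Kdm2b (-0.71 to -0.69), Cbx7 (-0.69 to -0.62) and Pcgf5 (0.57 to 0.64). The number of members called for KO against WT in mESC was 3 to 5 when 1 library was left out (6 with all), 3 without the KO library of line 16.9. WT EB against WT mESC gave 5 to 8 (8 with all), 5 without the WT EB library of line 5.3. WT mESC after against before OHT gave 3 to 6 (6 with all), and 3 with only the groups compared. KO mESC after OHT against F/F gave 2 to 4 (6 with all). The change of genotype effect from before OHT to EB gave 3 to 5 (5 with all), and that from before to after OHT in mESC gave 0 to 2 (1 with all), 2 with no low-count filter and 0 with only the groups compared. The replicate block gave 8 members for WT EB against WT mESC and changed no call except that of Pcgf6 in WT after OHT.

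Values that changed sign when 1 library was left out were uncalled and near 0. For KO against WT, they ran from -0.10 to 0.10 for Pcgf2 in EB and from -0.02 to 0.14 for Kdm2b in mESC, and before OHT from -0.09 to 0.02 for Pcgf6. From mESC to EB they ran from -0.14 to 0.07 for Pcgf3 in WT and from -0.02 to 0.12 for Cbx7 in KO. From before to after OHT they ran in WT from -0.05 to 0.05 for Rnf2, from -0.04 to 0.07 for Pcgf3 and from -0.19 to 0.00 for Rif1, and in the Rif1F/F lines from -0.01 to 0.04 for Pcgf5. Rnf2 in WT also gave 0.00 with RLE size factors and with DESeq2, and 0.01 with no low-count filter. For the change of genotype effect from mESC to EB they ran from -0.09 to 0.23 for Rybp and from -0.03 to 0.19 for Pcgf1. For that from before to after OHT they ran from -0.13 to 0.00 for Pcgf3, -0.10 to 0.06 for Kdm2b, -0.03 to 0.11 for Cbx7 and -0.07 to 0.15 for Pcgf1, and for that from before OHT to EB from -0.18 to 0.01 for Pcgf2. The cause was not tested.

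With a library left out, its group holds 1 library that is assumed to vary like the other groups. Shares of all genes called are given for the fit reported only, so the counts of members under the alternatives have none beside them. Pcgf1 and Ring1 had the fewest reads of the members.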
